A study of Mus musculus with 6 samples.

Results

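The epidermal growth factor (EGF) receptor family, its EGF-like ligands, the receptor inhibitor ERRFI1 and the hepatocyte growth factor receptor MET were examined in the liver of mice without growth hormone-releasing hormone (GHRH). The 10 genes were 4 receptors (Egfr, Erbb2, Erbb3 and Met), 5 ligands (Egf, Tgfa, Hbegf, Areg and Btc) and 1 inhibitor (Errfi1), and every probe set that the array annotation assigns to a single one of them was read. This gave 22 probe sets for 9 of the 10 genes, out of 18193 genes with such a probe set on the array. The annotation used here pairs no probe set with Areg, and it was not analysed here. The value of a gene is that of its probe set with the highest mean over the 6 arrays, so probe sets were selected on their mean level, a measured value that does not use the genotype. Met is not a member of the EGF receptor family by descent, and it was included as the other main growth factor receptor of hepatocytes.

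Liver RNA came from 3 Ghrh-KO males and 3 wild-type littermate males, both on a mixed C57BL6 and 129SV background, with an age of 10 months given in the methods and food withheld for 6 to 8 h before collection. Each array holds a separate animal, named here GHRH-KO replicates 4, 5 and 6 and control replicates 1, 2 and 3. Ghrh, the disrupted gene, is a hypothalamic one, and the disruption is carried by the whole body. Affymetrix whole-genome mouse arrays read each transcript with a set of short probes, and the authors summarised each set by robust multichip average (RMA), a background-corrected, quantile-normalized value on the log2 scale.

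ERBB receptors are tyrosine kinases that pair on binding an EGF-like ligand and then switch on the RAS-ERK and PI3K-AKT relays. EGFR and MET drive the division and survival of hepatocytes, most visibly in liver regeneration. ERBB3 has a weak kinase and signals through its partners, and ERBB2 binds no ligand of its own. The ligands are made as membrane proteins and are released by ADAM proteases, while ERRFI1 (also called MIG6) binds the active kinase of EGFR and ERBB2 and shuts it off. Growth hormone reaches the hepatocyte through JAK2 and STAT5, and hepatic Egfr is known to depend on it in mice.

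Promoter entries of 2 receptor genes are shown because one of them, Egfr, was the only member called and the other, Met, was not. Both hold 250 bases before and 50 bases after the start used in the RefSeq promoter table (GRCm38.p6), 5′ to 3′ on the gene's own strand, with each match to GGGCGG or its reverse complement, the core of the GC box, in capitals. The Egfr window lies at chr11:16751953-16752252 (plus strand) and the Met window at chr6:17463707-17464006 (plus strand).
Egfr: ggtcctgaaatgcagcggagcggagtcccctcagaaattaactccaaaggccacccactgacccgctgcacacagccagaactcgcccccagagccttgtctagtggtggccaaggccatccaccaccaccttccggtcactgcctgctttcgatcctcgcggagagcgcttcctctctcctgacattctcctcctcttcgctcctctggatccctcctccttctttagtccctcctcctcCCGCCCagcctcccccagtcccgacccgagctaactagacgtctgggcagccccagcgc
Met: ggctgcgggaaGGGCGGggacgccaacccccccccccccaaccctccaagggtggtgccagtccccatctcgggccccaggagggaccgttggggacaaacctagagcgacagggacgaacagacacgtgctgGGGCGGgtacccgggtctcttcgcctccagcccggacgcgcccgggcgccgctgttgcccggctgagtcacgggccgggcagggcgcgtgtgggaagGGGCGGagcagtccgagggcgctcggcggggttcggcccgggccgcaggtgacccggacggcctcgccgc
The Egfr gene spans chr11:16752203-16913907 and the Met gene chr6:17463349-17573980 in this build. The start used for Egfr is the first base of the gene, whereas the Met window lies wholly inside the span of its gene, downstream of the first annotated base. The Egfr window had 62.3% G and C, 15 CpG pairs and 1 GC box match, which began 9 bases before the start. The Met window had 75.7% G and C, 34 CpG pairs and 3 GC box matches. GGGCGG, read on both strands, stands in 35.7% of all 32851 promoter windows of this length. Neither window held TTCNNNGAA, the pattern of STAT5 sites, which was found in 8.3% of the windows, nor TATAAA, which was found in 13.6%. These are matches of letters and were not set against binding data. Promoter entries were found for 8 of the 10 genes.

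Egfr fell in GHRH-KO liver, and it was the only one of the 8 member genes tested to be called. A gene was called at an adjusted p below 0.05 (limma, Benjamini-Hochberg over all probe sets tested) with a fold change above 1.5 or below 0.67. Its leading probe set (1435888_at) read 9.03, 8.74 and 7.52 in GHRH-KO replicates 4, 5 and 6, against 11.69, 11.91 and 10.81 in control replicates 1, 2 and 3 (RMA values, log2). The groups lay apart by 1.78 between the highest GHRH-KO and the lowest control array. The mean was 8.43 ± 0.81 in GHRH-KO liver and 11.47 ± 0.58 in control liver (SD, n = 3 each). This was a log2 fold change of -3.04 (standard error 0.44, limma adjusted p = 0.0258), a level 8.23 times lower, with a 95% interval of 4.02 to 16.9 times lower. By size this was the 18th of 121 genes called down. Of the 12469 genes tested, 0.970% were called down and 0.786% up, together 1.76%, which was also the share with an adjusted p below 0.05, and the median log2 fold change was 0.0033, against 0.033 over the 8 member genes. The study lists Egfr among its decreased genes on these same arrays, so the call is not independent evidence.

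The call of Egfr did not hold in every fit with 1 array left out. It was lost without control replicate 2 (log2 fold change -2.82, adjusted p = 0.109 from limma) or control replicate 1 (-2.93, adjusted p = 0.0787). In these fits the genes called down over the whole series numbered 43 and 56, against 121 with all arrays. With any 1 of the 6 arrays left out the log2 fold change stayed between -3.37 and -2.58.

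The 7 probe sets of Egfr did not move alike. Probe sets 1424932_at and 1460420_a_at were called as well, with log2 fold changes of -3.24 (standard error 0.49) and -3.16 (standard error 0.39) and adjusted p values of 0.0283 and 0.0144 from limma. The background of such calls was 0.851% of probe sets called down. Probe set 1424932_at read 8.19, 7.55 and 6.45 in GHRH-KO liver, against 10.81, 11.22 and 9.89 in control liver. Probe set 1460420_a_at read 7.91, 6.31 and 7.48 in GHRH-KO liver, against 10.32, 10.67 and 10.19 in control liver. With 1 array left out, the call of 1424932_at held only without GHRH-KO replicate 4 (adjusted p up to 0.114), and that of 1460420_a_at was lost without GHRH-KO replicate 6, control replicate 2 or control replicate 3 (adjusted p up to 0.0776). With all arrays, the falls on these 3 probe sets ranged from 8.23-fold to 9.47-fold.

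The lowest GHRH-KO animal was not the same on each probe set. GHRH-KO replicate 6 lay 0.91 and 0.95 below the mean of its own group on 1435888_at and 1424932_at, while on 1460420_a_at GHRH-KO replicate 5 lay 0.93 below it and replicate 6 lay 0.25 above. Control replicate 3 was the lowest control on all 3. GHRH-KO replicate 5 and control replicate 2 were the arrays with the widest deviations over all probe sets tested (interquartile range 0.357 and 0.316, against 0.185 to 0.249 in the others), and their part in this order was not tested.

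The fourth probe set, 1451530_at, gave 5.33, 5.16 and 5.01 in GHRH-KO liver, against 6.92, 7.06 and 5.94 in control liver. Its groups did not overlap, and its log2 fold change of -1.47 (95% interval -2.15 to -0.79) missed the threshold (adjusted p = 0.0643 from limma). Without control replicate 3, the lowest control, it was called (log2 fold change -1.82, adjusted p = 0.0113). The GHRH-KO mean of 5.17 on this probe set was close to the values of Ghrh, whose probe set read 4.40 to 4.57 in GHRH-KO liver and 4.41 to 4.75 in control liver and which serves here as the level of background. That level differs between probe sets. Of 11 genes restricted to other tissues, Ghrh included, Amelx (4.83 to 5.05), Cryaa (5.03 to 5.33) and Prm1 (7.17 to 7.87) read above it on all 6 arrays. A value over 4.75 is therefore not by itself shown to be signal. The lowest GHRH-KO values on 1435888_at, 1424932_at and 1460420_a_at were 7.52, 6.45 and 6.31, none above the highest Prm1 value. The falls on these called probe sets may therefore be understated.

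The other 3 probe sets of Egfr gave low values with overlapping groups. Probe set 1432647_at averaged 5.57 ± 0.21 in GHRH-KO liver and 5.76 ± 0.04 in control liver, and 1454313_at averaged 5.44 ± 0.16 and 5.58 ± 0.08 in GHRH-KO and control liver (SD, n = 3 each). Their log2 fold changes were -0.19 and -0.14. Probe set 1457563_at was at background in both genotypes, with means of 3.26 and 3.30 in GHRH-KO and control liver, and was below the intensity filter. Where all 7 probe sets were averaged, the log2 fold change of Egfr was -1.61 (adjusted p = 0.0128 from limma), a smaller fall than on the leading probe set.

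**Figure D1:**
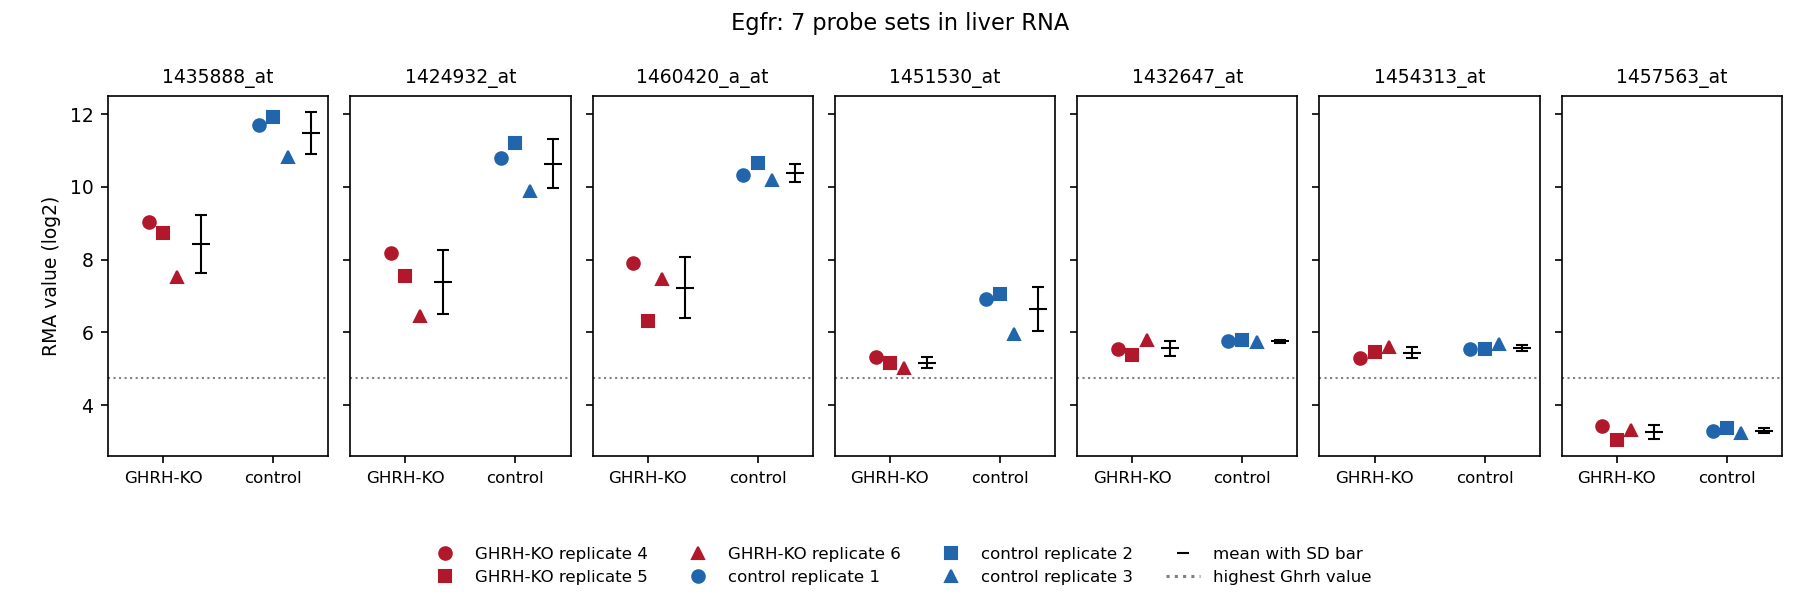
RMA values (log2, y axis) of the 7 Egfr probe sets in each of the 3 GHRH-KO and 3 control arrays, each group with its mean and SD drawn in black, and the highest Ghrh value, 4.75, as a dotted line. In the 4 panels on the left the GHRH-KO points lie wholly below the control points, and in the 3 panels on the right the groups overlap at low values.

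The other receptors were not called. Erbb3, the partner receptor with a weak kinase, read 10.90, 10.77 and 10.48 in GHRH-KO liver, against 10.35, 10.54 and 10.40 in control liver. One GHRH-KO array lay below the highest control, so the groups overlapped. Its log2 fold change was 0.29 (95% interval -0.047 to 0.62, adjusted p = 0.335 from limma), which bounds a change of Erbb3 between 0.968-fold and 1.54-fold. The second Erbb3 probe set (1452482_at) was at background in both genotypes, at 4.17 and 4.10 in GHRH-KO and control liver.

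Met, the receptor for hepatocyte growth factor, read 10.24, 10.12 and 10.06 in GHRH-KO liver, against 9.90, 9.54 and 10.08 in control liver. Control replicate 3 reached into the range of the GHRH-KO arrays. The log2 fold change was 0.30 (95% interval -0.077 to 0.68, adjusted p = 0.366 from limma), or at most 1.60-fold higher within that interval. It was 0.15 without control replicate 2 and 0.42 without control replicate 3. The second Met probe set (1422990_at) was at background, with means of 4.07 and 4.39 in GHRH-KO and control liver, and no fold is given for it.

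Erbb2, the receptor without a ligand, gave a signal close to background. It read 4.71, 4.91 and 4.87 in GHRH-KO liver, against 4.86, 4.85 and 4.80 in control liver. Between genotypes the log2 fold change was -0.0027 (95% interval -0.26 to 0.26). With a signal this low, a change of the transcript may not be visible on the array.

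The change of Egfr was set against that of the other 7 tested members within each array. The difference in log2 value between Egfr and each of them, centred on the control mean, was lower in all 3 GHRH-KO arrays than in all 3 control arrays. The GHRH-KO mean of this difference minus the control mean was -3.33 against Erbb3, -3.34 against Met, -2.83 against Tgfa, -3.28 against Hbegf and -2.94 against Errfi1. The other tested members changed by at most 0.30 either way, so each difference largely restates the change of Egfr (-3.04). Egfr by itself already lay apart by 1.78 between genotypes, so this separation adds no evidence. Erbb2 and Btc lay near background, and no difference is printed for them. An exact permutation test, two-sided, gave p = 0.1 for each of the 7 differences, those against Erbb2 and Btc included. That is the smallest p that 3 against 3 arrays allow, so none can pass a threshold of 0.05 before or after adjustment.

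None of the ligands was called. Tgfa, a ligand that hepatocytes make for their own EGFR, read 7.79, 8.16 and 8.01 in GHRH-KO liver, against 8.36, 8.07 and 8.16 in control liver. The groups overlapped, and the log2 fold change was -0.21 (95% interval -0.55 to 0.12, adjusted p = 0.464 from limma). With 1 array left out it lay between -0.30 and -0.11, the smallest changes coming without GHRH-KO replicate 4 (-0.11) or control replicate 1 (-0.13). Its other probe sets, 1450421_at and 1421942_s_at, had log2 fold changes of -0.034 and -0.10 at low values.

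Hbegf, the heparin-binding ligand, read 6.63, 6.78 and 6.88 in GHRH-KO liver, against 6.38, 6.48 and 6.71 in control liver. Only the lowest GHRH-KO array fell within the control range. Its log2 fold change was 0.24 (95% interval -0.073 to 0.56, adjusted p = 0.382 from limma). Its second probe set (1418350_at) gave 0.29 with a control mean of 4.60, at background, so 0.29 stands as a lower bound. The 95% interval there, -0.032 to 0.62, included 0.

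Btc, betacellulin, varied widely between animals of 1 genotype, with an SD of 0.61 in GHRH-KO liver and 0.74 in control liver (n = 3 each). It read 4.43, 5.63 and 5.23 in GHRH-KO liver, against 5.82, 4.35 and 4.91 in control liver. Both genotypes held arrays above and below 4.75, in the range where signal and background are not separated. The log2 fold change was 0.068, with a 95% interval from -0.94 to 1.07, so that a change by a factor of 1.91 down or 2.10 up lies within it. The other Btc probe set (1421161_at) was at background, with means of 3.18 and 3.26 in GHRH-KO and control liver.

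Egf itself, which is made chiefly in salivary gland and kidney, was at background in liver. Its only probe set read 4.07, 4.24 and 4.45 in GHRH-KO liver, against 3.82, 4.01 and 4.04 in control liver. The GHRH-KO values lay just above the control values, but all 6 were under the highest Ghrh value, so no fold is given (limma adjusted p = 0.357 with no filter on intensity). Groups lay apart with GHRH-KO higher in 12.7% of all genes tested, and with GHRH-KO lower in 15.7%.

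Errfi1, the inhibitor, gave different values on its 2 probe sets. The leading one (1416129_at) read 12.65, 13.05 and 12.65 in GHRH-KO liver, against 12.94, 12.95 and 12.76 in control liver, and was higher than at least 99.2% of all probe sets on each array. Its groups overlapped, with a log2 fold change of -0.097 (95% interval -0.44 to 0.25, adjusted p = 0.756 from limma). With 1 array left out this ran between -0.23 (without GHRH-KO replicate 5) and -0.031. On 1419816_s_at, a probe set whose suffix marks probes shared between transcripts, GHRH-KO liver read 10.58, 7.83 and 10.12, against 11.25, 10.64 and 10.78 in control liver. The GHRH-KO values were all lower, GHRH-KO replicate 5 far below the other 2. This gave a log2 fold change of -1.38 (95% interval -2.93 to 0.17, adjusted p = 0.320 from limma), and -0.54 without GHRH-KO replicate 5. That array had the highest Errfi1 value of the 6 on the leading probe set and the lowest on this one.

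**Figure D2:**
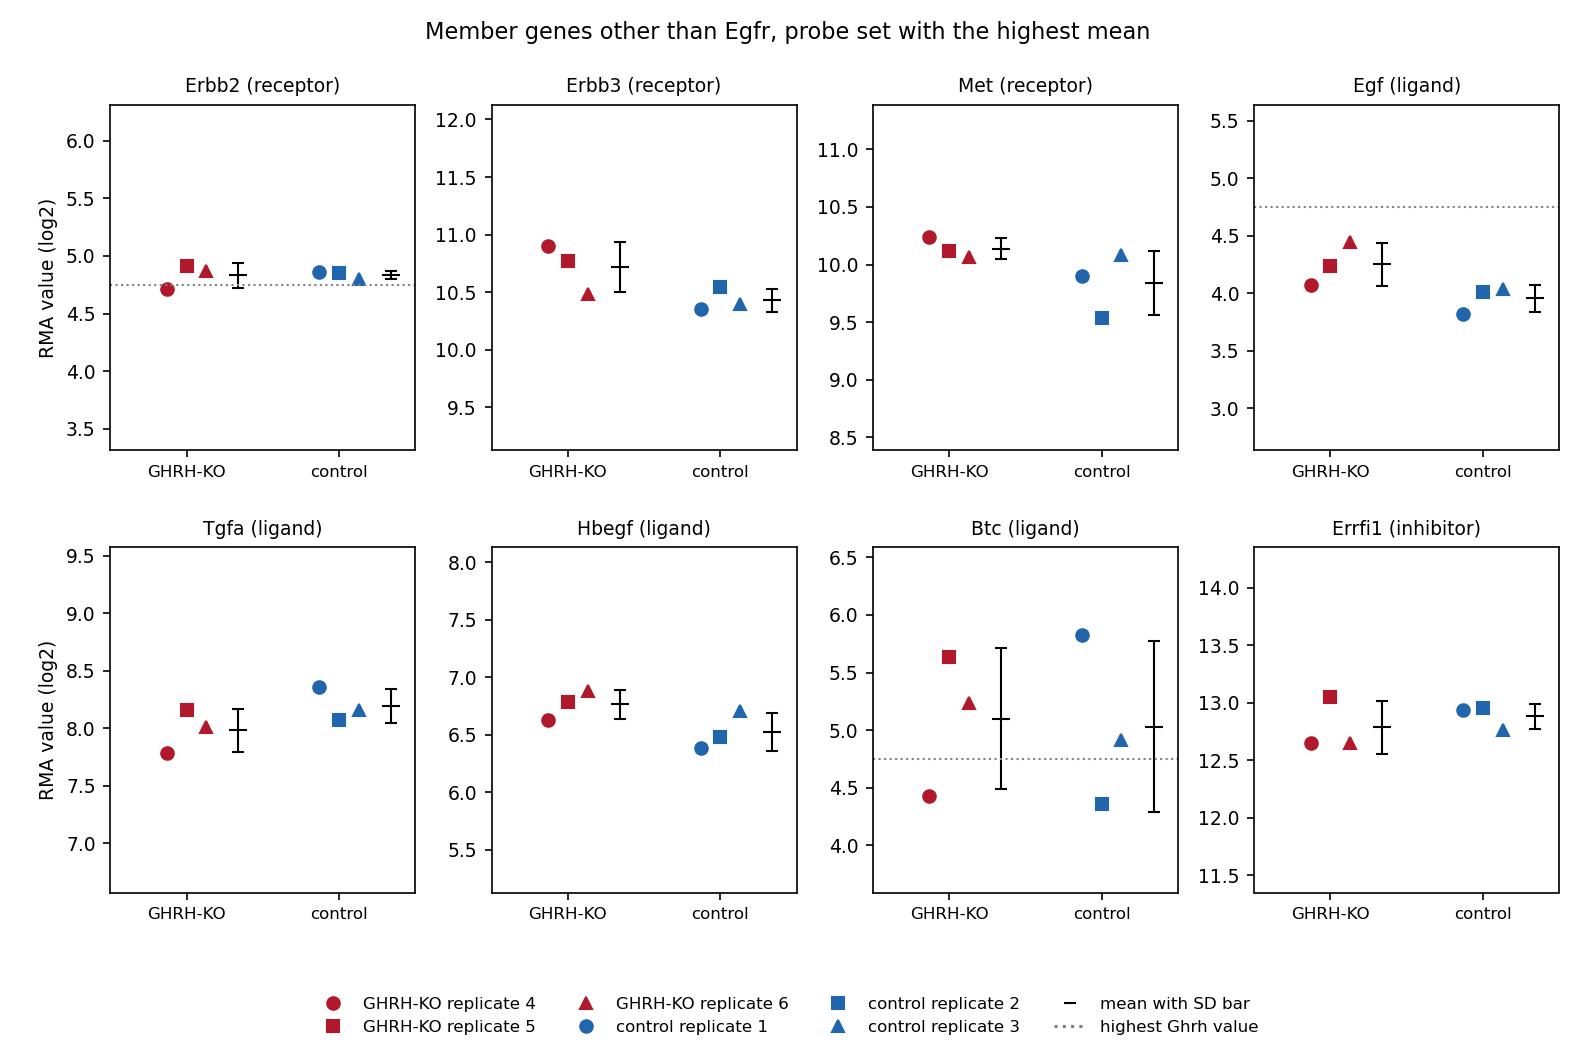
RMA values (log2, y axis) of the 8 member genes other than Egfr that have a probe set, each at the probe set with the highest mean, in the 3 GHRH-KO and 3 control arrays, means and SDs in black and the highest Ghrh value dotted where it falls in the panel. All panels span the same distance on the log2 scale. Egf lies wholly below the dotted line, and Btc shows the widest spread within each genotype among these 8 genes.

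**Figure D3:**
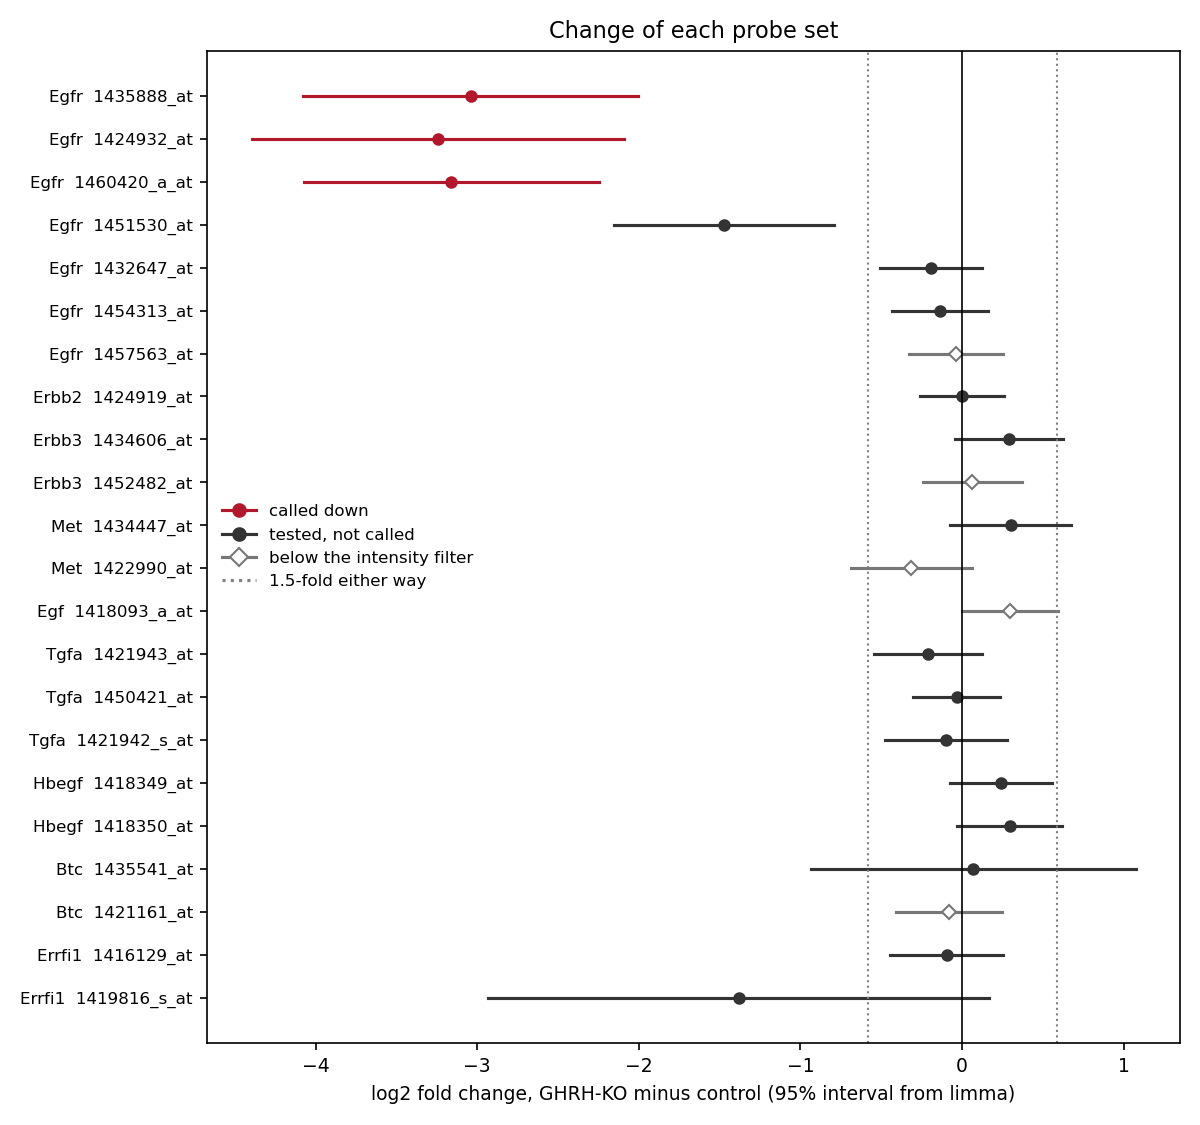
Log2 fold change, GHRH-KO minus control, of each of the 22 probe sets with its 95% interval from limma (x axis). Open diamonds are probe sets below the intensity filter, and dotted lines mark 1.5-fold either way. The 3 called Egfr probe sets stand near -3, the fourth near -1.5, and the interval of every other probe set includes 0, the wide one of 1419816_s_at (Errfi1) too.

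Over the members, 1 of 8 tested genes was called down and 0 were called up. At an unadjusted p under 0.05 from limma it was also 1 of 8, against 19.3% of all genes tested. Of the other 7 genes, 4 had a positive and 3 a negative log2 fold change.

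Further ERBB receptors and ligands outside the 10 genes were largely at low signal. Of 7 such genes, 5 (Erbb4, Epgn, Ereg, Nrg1 and Nrg3) were below the intensity filter. Nrg4, a neuregulin that binds ERBB4, read 6.24, 6.94 and 6.35 in GHRH-KO liver, against 5.67, 5.20 and 5.39 in control liver. The groups did not overlap, but Nrg4 was not called (log2 fold change 1.09, standard error 0.22, adjusted p = 0.0663 from limma).

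Genes that release the ligands were not called. Among 10 of 12 tested, Rhbdf1, an iRhom protein that guides the protease ADAM17, had 7.35, 7.29 and 7.32 in GHRH-KO liver, against 6.90, 6.70 and 6.85 in control liver (log2 fold change 0.51, adjusted p = 0.0816 from limma). Bace1, a membrane protease, had a log2 fold change of -0.65 (adjusted p = 0.0907) with groups apart. Adam17 itself averaged 7.87 ± 0.39 in GHRH-KO liver and 7.57 ± 0.31 in control liver (SD, n = 3 each), with overlapping groups.

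For the hepatocyte growth factor side, 0 of 9 tested genes were called, and 4 of them had groups apart with GHRH-KO lower, as did 15.7% of all genes tested. Hgf, the ligand of MET, averaged 5.90 ± 0.16 in GHRH-KO liver and 5.87 ± 0.08 in control liver (SD, n = 3 each). Hgfac, a protease that activates it, had a log2 fold change of -0.35 (adjusted p = 0.242 from limma), and F12, coagulation factor XII, one of -0.64 (adjusted p = 0.321). The list's median was -0.26.

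Downstream of the receptors, Plcg1 fell and Ccnd1 rose, where 0.970% of all genes tested were called down and 0.786% up. Plcg1, the phospholipase that docks on active EGFR, read 7.98, 8.15 and 8.29 in GHRH-KO liver, against 8.82, 8.82 and 8.88 in control liver. It was 1.62 times lower (log2 fold change -0.70, standard error 0.12, adjusted p = 0.0452 from limma). The call of Plcg1 was lost with any 1 array left out (adjusted p up to 0.132), with a second quantile normalization (0.0620) and over the mean of its probe sets (log2 fold change -0.22, adjusted p = 0.203). It was 1 of 14 tested genes of the PI3K, PLC, SRC and STAT branches, where Stat5b (0.57, adjusted p = 0.143) and Pik3r1 (-0.42, adjusted p = 0.201) also had groups apart.

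Ccnd1, the cyclin that takes cells into the division cycle and a target of ERK, read 9.48, 8.95 and 10.02 in GHRH-KO liver, against 7.84, 7.36 and 6.85 in control liver. It was 4.40 times higher (log2 fold change 2.14, standard error 0.33, adjusted p = 0.0302 from limma). The call was lost without GHRH-KO replicate 4 or 6 or without control replicate 2 or 3 (adjusted p up to 0.123). Among 12 tested ERK-responsive genes it was the only one called. Egr1, an immediate early factor, read 10.73, 8.42 and 8.44 in GHRH-KO liver, against 7.17, 5.80 and 5.42 in control liver, with a log2 fold change of 3.07 and a standard error of 0.71 that left it above the threshold (adjusted p = 0.0907). Fos (log2 fold change 1.49, adjusted p = 0.466 from limma) and Jun (0.71, adjusted p = 0.489) were not called, and their groups overlapped. GHRH-KO replicate 4 read highest for each, at 10.73 for Egr1, 10.02 for Fos and 9.61 for Jun. For hepatic Egr1, Fos and Jun mRNA the paper reports the other direction, a significant repression in GHRH-KO mice by a separate assay. It also reports lower hepatic phosphorylation of MEK, ERK and P38, which RNA arrays do not read. Why the assays differ was not tested. Phlda1, another ERK target, had a log2 fold change of -0.37 (adjusted p = 0.357 from limma).

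Among 15 tested adaptors and members of the RAS-ERK relay 0 were called, and 6 further genes of that list had no probe set of their own in the annotation used here. Sos2, a RAS activator, had a log2 fold change of 0.66 and Shc1, an adaptor of EGFR, one of -0.47 (adjusted p = 0.199 and 0.203 from limma). Of 26 inhibitors, feedback and trafficking genes 0 were called. Spred1 and Spred2, which hold back RAS signalling, had log2 fold changes of 0.68 and 0.47 (adjusted p = 0.121 and 0.158), with groups apart. In all, 2 of 88 tested pathway genes were called, 1 in each direction, against 1.76% of all genes tested, a number close to that background. The 88 genes' median log2 fold change was 0.055.

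**Figure D4:**
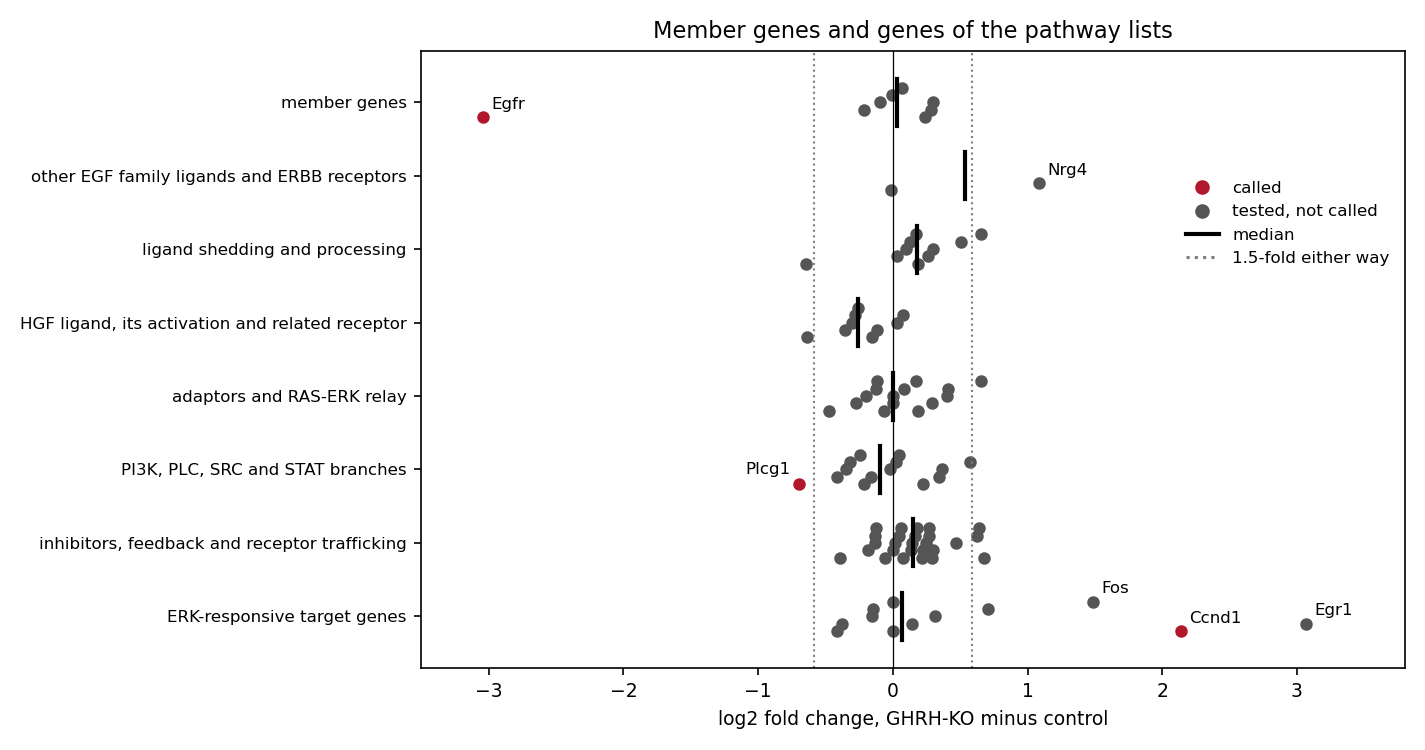
Log2 fold change, GHRH-KO minus control (x axis), of the tested member genes and of the tested genes of 7 pathway lists, one point per gene at its highest-mean probe set, with the median of each list as a black bar. Egfr at -3.04, Plcg1 at -0.70 and Ccnd1 at 2.14 are the called genes.

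The genes at the smallest distance from Egfr over the 6 arrays, a measure that takes in the size of the change, were Susd4, Carmil1, Dpy19l3, Ppp1r14a and Capn8. Likeness was the Euclidean distance between log2 values centred on each gene's control mean. It was 1.29 for Susd4, 1.31 for Carmil1, 1.36 for Dpy19l3, 1.40 for Ppp1r14a and 1.53 for Capn8, where the distance of Egfr from a flat line is 5.45. Their log2 fold changes lay between -3.46 and -2.66, a direction that the choice by likeness fixes. GHRH-KO replicate 6 was the lowest GHRH-KO array for Egfr, Susd4 and Dpy19l3, but not for Carmil1, Ppp1r14a or Capn8. Capn8 read 4.28, 4.85 and 4.53 in GHRH-KO liver, with a mean under 4.75, so its fall is a lower bound. Carmil1, Dpy19l3 and Ppp1r14a read 4.66 to 5.31 in GHRH-KO liver, a range not shown to be signal, so their falls may be understated. Susd4, a complement inhibitor, was nearest, with 6.08, 6.82 and 5.76 in GHRH-KO liver, against 9.54, 10.10 and 9.41 in control liver.

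In bulk liver RNA, fewer cells of a type and less RNA per cell cannot be told apart. Of 7 hepatocyte markers with values, 0 were called, with summed linear levels of 92120 to 92570 in GHRH-KO liver and 87730 to 92160 in control liver. Groups lay apart for 2 of the 7, against 12.7% of all genes tested with GHRH-KO higher and 15.7% with GHRH-KO lower. A sum of linear levels weighs the brightest genes most, so it may not show a change of the others. The summed level overlapped between genotypes for the macrophage (10 genes, 3135 to 8825 in GHRH-KO and 2991 to 7583 in control liver), endothelial, stellate, cholangiocyte, lymphocyte and adipocyte lists. At background in both genotypes were 6 of 8 lymphocyte, 3 of 4 adipocyte, 2 of 5 cholangiocyte and 1 of 8 endothelial genes, which limits what these lists could show. The summed level lay apart for neutrophil markers (7 genes, 141.8 to 210.8 in GHRH-KO and 130.6 to 140.1 in control liver, 5 of them at background) and mesothelial markers (4 genes, 112.5 to 156.6 and 91.6 to 104.4, 2 at background). Erythroid (4 genes, 697 to 974.7 in GHRH-KO and 1721 to 2430 in control liver) and acinar markers (6 genes, 605.2 to 762 and 1622 to 2761) lay apart the other way. Each of these sums was carried by 1 called gene. Without Alas2 the erythroid sum was 46.3 to 54 in GHRH-KO liver and 42.4 to 53.1 in control liver, the 3 genes left being at background, and the list's median log2 fold change was -0.052. Without Cela1 the acinar sum was 224.9 to 236.6 in GHRH-KO liver and 220.8 to 479 in control liver, with Cela2a at background, and the list's median was 0.013. Their part in the change of Egfr was not tested.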

How the data were processed

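The 6 arrays (3 GHRH-KO, 3 control) were grouped by their titles, and the replicates are separate animals. The authors deposited RMA values on the log2 scale for all 45101 probe sets of the array. The RMA software version is not given in the sources used here. Quantile normalization holds the distributions of the arrays alike, and RMA compresses changes of dim probe sets. Without the 64 control probe sets, the 55.8% of the others with the highest mean were tested, as many as in the methods' own detection filter, which cannot be repeated from RMA values. The genotypes were compared by the moderated test of limma 3.58.1 (R 4.3.3, lmFit, eBayes, two-sided), with Benjamini-Hochberg adjustment over all probe sets tested, and the fit was tested on simulated data. Of the non-control probe sets, 932 were annotated with several genes and 9160 with none. A group mean at or under 4.75, the highest Ghrh value, was called background, and with Ghrh that low its values cannot check the genotypes. The number of arrays limits the precision. Members, gene lists and rules were chosen with earlier results of these data known. Named genes are all members, each called gene of 7 pathway lists with up to 2 others of largest change whose groups lie apart, and the 5 genes most like Egfr. Alternatives were other filters, normalizations, variance models and probe set choices, and each array left out. Promoter sequences are from RefSeq (GRCm38.p6). Plots used matplotlib 3.10.9 (Python 3.11.15).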

Additional observations from a re-analysis of the deposited data

How the results depend on the processing

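Egfr kept its direction under all 16 alternatives and lost its call under 3. With 1 array left out its log2 fold change ran from -3.37 to -2.58. In an alternative chosen after seeing the data, without both control replicate 2 and GHRH-KO replicate 5, it was -2.98 (adjusted p = 0.128 from limma), and 0 member genes were called. With 1 array left out the count of member genes called was 0 to 1, the genes called down numbered 43 to 94 and those called up 36 to 95, against 121 and 98 with all arrays. Without both arrays these counts were 66 and 42, and with array weights 278 and 248. The other 7 tested members were not called under any alternative. Their sign changed in 10 of 110 values, all close to 0 or with a wide error. Btc had -0.034 with array weights, -0.0058 over the mean of its probe sets, -0.27 to 0.47 with 1 array left out and -0.54 without both arrays. Erbb2 had 0.015 with array weights and -0.042 to 0.058 with 1 array left out. Met had -0.0071 over the mean of its probe sets. The cause of these changes was not tested, beyond the smaller number of arrays in some fits. No paired analysis was possible because the sample labels give no litter or pair for the animals. Dim signals limit Egf, Erbb2 and Btc.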
